A study of Mus musculus with 2 samples.

Results

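The subunits of the NuRD complex were followed in G1E-ER4 cells as 10 genes matched by symbol in the deposited gene and transcript tables: Chd3, Chd4, Mta1, Mta2, Mta3, Mbd2, Mbd3, Rbbp4, Rbbp7 and Gatad2a. All 10 were found among 43346 gene rows. G1E-ER4 is an immortalized line of mouse erythroid cells made without functional Gata1, to which GATA1 was restored as a fusion with the ligand-binding domain of the estrogen receptor. Poly(A) RNA was sequenced in paired-end mode after treatment with 10 nM 17beta-estradiol for 30 h, in 2 libraries labelled biological replicates 1 and 2, which form 1 group. The labels give the sex as male and the stage as postnatal, and it is a single cell line. No untreated library was analysed here, so the data hold levels and not an effect of estradiol. The question put to them was which paralog of each subunit, and which of its transcripts, makes up most of the RNA.

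NuRD joins an ATP-driven nucleosome remodeller, CHD3, CHD4 or CHD5, to the histone deacetylases HDAC1 and HDAC2. MTA proteins form the scaffold that holds the deacetylases, RBBP4 and RBBP7 are histone-binding proteins of WD40 repeats, and MBD2 or MBD3 is joined to the remodeller through GATAD2A or GATAD2B. MBD2 binds methylated CpG sites and MBD3 binds them poorly, and a complex holds either MBD2 or MBD3. In erythroid cells NuRD is recruited by FOG1, the product of Zfpm1, which is a cofactor of GATA1. Each subunit position that paralogs can fill is called a slot below.

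Depth was 73681318 expected counts for replicate 1 and 56056404 for replicate 2. All 8 erythroid markers reached 1 TPM in both libraries (TPM is an abundance corrected for transcript length), from Hbb-bs down to Epb42, at 1.5 and 1.05 TPM. Of 5 myeloid markers none reached 1 TPM in both libraries, and their summed level was 0.32 TPM in replicate 1 and 10.9 in replicate 2. Lyz2 was at 0 counts in replicate 1, and Mpo, Elane and Prtn3 were at 3.96, 3.04 and 3.76 TPM in replicate 2. The 4 megakaryocyte markers summed to 3.26 and 5.78 TPM, with Vwf and Pf4 at 0 TPM in replicate 1. The 3 lymphoid markers summed to 0.35 and 0.06 TPM, and all 3 mast cell markers had 0 counts, a value compatible with as many as 3 counts (0.0407 CPM in replicate 1 and 0.0535 CPM in replicate 2, after scaling by depth). In bulk RNA, fewer cells of a type and less RNA per cell cannot be told apart.

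All 10 NuRD members had a mean TPM above the median expressed gene. The members' median was 77.6 TPM, against 13.7 TPM for all 8247 genes with a mean of at least 1 TPM and 14.7 TPM for the 7743 protein-coding genes among them. Mbd2 was highest with 227 TPM in replicate 1 and 293 in replicate 2, and 94.7% of expressed protein-coding genes lay below its mean. Rbbp4 was lowest with 32.7 and 23.97 TPM, and 65.2% of those genes lay below it. Between these ends the order by mean was Chd3, Chd4, Mbd3, Mta3, Mta1, Rbbp7, Gatad2a and Mta2. Of the 9 neighbours in the order, 4 had ranges that overlapped between the libraries: Chd3 with Chd4, Chd4 with Mbd3, Mbd3 with Mta3, and Mta1 with Rbbp7. With 2 libraries these ranges are a description and not a test. Over complete coding transcripts alone, Chd3 had 7.79 and 10.2 TPM. That is below the 13.7 TPM median of expressed genes, but the median counts all transcripts of each gene, so the measures are unlike. Of the other NuRD subunit genes, Hdac2, Gatad2b and Chd5 were below that median by gene TPM.

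**Figure D1:**
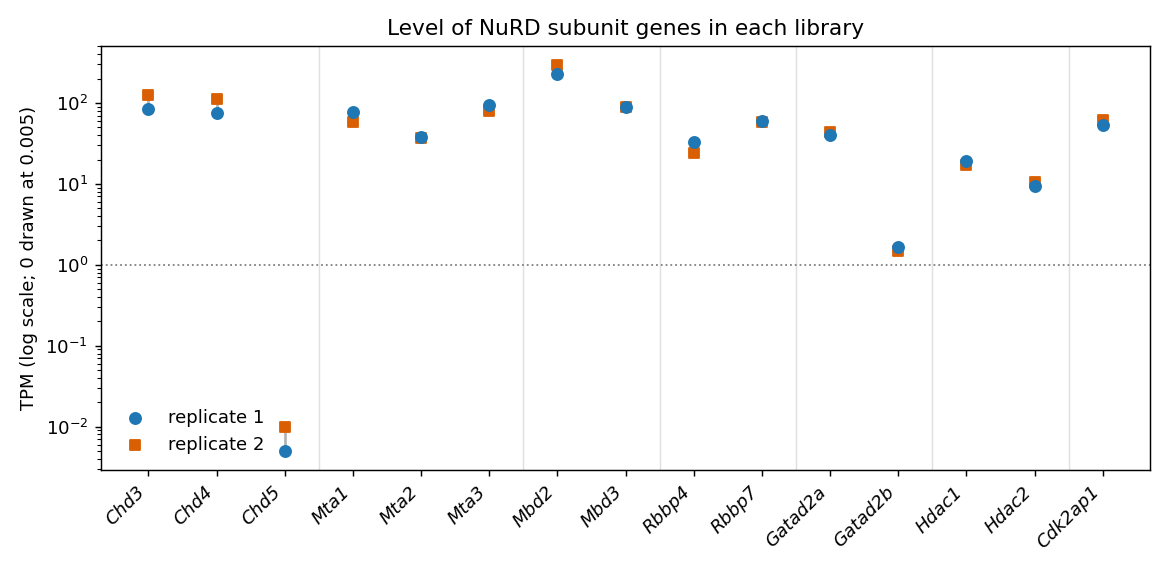
Level of the 10 NuRD members and 5 other NuRD subunit genes, in TPM on a log axis, with a circle for replicate 1, a square for replicate 2 and a dotted line at 1 TPM. Mbd2 stands highest at 227 and 293 TPM, Gatad2b lies near the line and Chd5 is at 0 and 0.01 TPM.

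Paralogs were compared within each library, so that depth cancels. For 8 pairs, the log2 ratio was taken on the log2(TPM + 1) scale, which understates differences of low genes. Each was tested with limma as 1 row of a fit of every expressed gene against the same reference paralog, with Benjamini-Hochberg adjustment over the 8246 genes of that fit and a threshold of 0.05. Most genes differ in level from any of these references, so the share of all genes called is given beside each pair. In the alternative fits of these pairs that share lay between 78.2% and 97.8%. The error of each ratio leans on the spread of all genes against the reference, and not on the values of the pair alone. A small p-value therefore need not mean that the libraries agreed closely for that pair. Because the labels do not say how the cultures were separated, the p-values cover only the spread between these libraries.

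The MBD slot was led by Mbd2. The 7-exon gene Mbd3 (ENSMUSG00000035478.10, chromosome 10, 80392539 to 80399550, minus strand, mm10) had 89.4 and 90.01 TPM. Mbd2 (ENSMUSG00000024513.12, chromosome 18, 70568189 to 70626131, plus strand) held 71.7% of the slot's TPM in replicate 1 and 76.5% in replicate 2. Its log2 ratio to Mbd3 was 1.33 and 1.69, with a mean of 1.51 (95% interval 1.17 to 1.86, a 2.85-fold ratio on that scale, limma adjusted p = 0.000114). Mbd2 was above Mbd3 in both libraries, and 93.9% of genes differed from Mbd3 in the same fit. The direction was the same under every alternative measure computed, with a share of expected counts of 71.8% and 75.6%. Adjustment for GC content, which takes from each gene the trend of level on gene GC content, gave a mean log2 ratio of 2.58. That is 5.98-fold relative to genes of like GC content, and not a fold of Mbd2 to Mbd3 RNA.

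Most Mbd2 RNA was assigned to the short transcript Mbd2-202, which took 76.7% and 84.8% of the gene's TPM from 14724 and 15919 counts. The full-length Mbd2-201 took 23.1% and 15.0%, from 7028 and 4475 counts. At 52.4 and 43.9 TPM, Mbd2-201 alone lay below the complete coding transcripts of Mbd3 together, at 75.6 and 75.8. It lay above the long form Mbd3-201 alone, at 17.3 and 19.7 TPM. The lead of Mbd2 over all complete coding Mbd3 transcripts thus depends on counting Mbd2-202. Mbd2-202 has 3 exons, 1290 bases and 249 codons, where Mbd2-201 has 7 exons, 1953 bases and 414 codons. Of the bases of Mbd2-202, 496 are in no other complete coding transcript of the gene, so reads can tell it from Mbd2-201. By counts, Mbd2-202 still led with 67.7% and 78%. As background, the coiled coil by which MBD2 binds GATAD2A lies in the C-terminal part of the protein, and the methyl-CpG-binding domain lies before it.

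Mbd3 was split among 4 transcripts in nearly the same way in both libraries. Mbd3-204 led with 46.8% in each, followed by Mbd3-201 at 19.3% and 21.9%, Mbd3-203 at 18.0% and 15.2%, and the incomplete Mbd3-206 at 13.2% and 14.0%. Mbd3-204 encodes 253 codons and Mbd3-201 encodes 285. They differ by 96 bases at the end of the first exon, a loss of 32 codons that keeps the reading frame, in the region of the protein where its methyl-CpG-binding domain lies. That stretch, at chr10:80399122-80399217 (mm10, minus strand, GENCODE M21), is shown since it is the whole difference between the leading transcript and the long form. Capitals mark the bases present in Mbd3-201 and absent from Mbd3-204, and lower case marks the 14 coding bases before and the 20 after.
Mbd3-201: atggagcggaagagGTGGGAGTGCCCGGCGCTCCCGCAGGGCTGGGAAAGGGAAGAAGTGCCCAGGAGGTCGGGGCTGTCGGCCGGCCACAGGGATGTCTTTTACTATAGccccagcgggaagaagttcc
The capitals begin 14 bases after the first base of the start codon and have a GC content of 65.6%. Mbd3-204 has no base of its own outside the other complete forms, so its estimate depends on reads that span the junction or on coverage of the 96 bases.

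The GATAD2 slot was the most uneven. Gatad2a (ENSMUSG00000036180.10, chromosome 8, 69907076 to 69996384, minus strand), which bridges the MBD protein to the remodeller, had 40.7 and 44.4 TPM, from 15243 and 12746 counts. Gatad2b had 1.67 and 1.47 TPM, from 218 and 146 counts, so Gatad2a held 96.1% and 96.8% of the slot. The log2 ratio of Gatad2b to Gatad2a was -3.96 and -4.20, with a mean of -4.08 (95% interval -4.51 to -3.65, limma adjusted p = 3.28e-07), where 90.8% of genes differed from Gatad2a. On this scale Gatad2a was 16.9-fold higher. Every alternative measure computed gave the same direction, but the fold was 25.6 with a pseudocount of 0.1 TPM and 77.7 by counts. After adjustment for GC content it was 7.46, again relative to genes of like GC content. Gatad2b was represented in the deposited tables by 1 transcript of 1906 bases, of which 1782 are coding. In GENCODE M21 that transcript runs from 90341654 to 90358120 on chromosome 3, within a gene that runs from 90293178 to 90363407. Reads from other parts of the gene may not have been counted, so Gatad2b may be underestimated, and this was not tested. Gatad2a-203, Gatad2a-201 and Gatad2a-202 took 64.8%, 20.2% and 15.0% of Gatad2a TPM in replicate 1 and 63.8%, 22.01% and 14.2% in replicate 2. Their lengths in the deposited tables were 5205, 5208 and 5062 bases, against 5007, 3812 and 3363 in GENCODE M21, so the models differ.

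The remodeller slot held Chd3 and Chd4 and almost no Chd5. Chd3 (ENSMUSG00000018474.13, chromosome 11, 69343273 to 69369406, minus strand) was at 84.8 TPM in replicate 1 and at 126 in replicate 2. Chd4 (ENSMUSG00000063870.8, chromosome 6, 125095981 to 125130591, plus strand) had 75.1 and 113 TPM. Chd5 had 2 and 3 counts. Chd3 and Chd4 both had more TPM in replicate 2, and their ranges overlap. The log2 ratio of Chd3 to Chd4 was 0.17 and 0.16, with a mean of 0.17 (95% interval -0.79 to 1.12, limma adjusted p = 0.758). No difference was called, though 82.6% of genes differed from Chd4, and the interval covers a Chd3 excess of more than 1 log2 unit as well as a Chd4 excess. Its width comes from the spread of all genes against Chd4, whose own TPM differed between the libraries.

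Which remodeller led depended on which transcripts were counted. Chd4 took 73.7% and 63.3% of the slot's expected counts, against 47.0% and 47.3% of its TPM. Using only transcripts with a complete annotated coding sequence, Chd4 took 88.9% and 84.8%, and the log2 ratio of Chd3 to Chd4 turned to -2.61 (limma adjusted p = 1.29e-20, with 94.1% of genes called). It was -0.61 over all transcripts annotated as protein-coding (limma adjusted p = 0.00205, with 93.5% of genes called) and -0.04 after the trend of level on gene GC content had been removed (limma adjusted p = 0.94). The complete coding alternative was chosen after the data had been seen. In these terms Chd3 had 7.79 and 10.2 TPM of complete coding transcripts and Chd4 had 62.3 and 56.8.

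The Chd3 level was made up largely of transcripts other than its full-length form. Chd3-203, a retained-intron transcript of 2153 bases at the end of the gene, took 34.5% and 38.8% of its TPM. Chd3-207, an incomplete coding fragment of 430 bases, took 34.4% and 28.3%. All 430 bases of Chd3-207 lie within complete Chd3 transcripts, as do 2064 bases of Chd3-203. Full-length Chd3-202, with 7261 bases and 2055 codons, took 9.19% and 8.07% of TPM but 37.9% and 32.6% of counts, with 4127 and 4120 counts. Chd3-207 took 5.5% and 4.2% of counts. Complete coding forms made up 9.2% and 8.1% of Chd3 TPM.

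The TPM of Chd4 in replicate 2 rested in large part on 1 short transcript. Full-length Chd4-202 took 57.8% of Chd4 TPM in replicate 1 and 32.2% in replicate 2, and Chd4-203 took 25.1% and 18.2%. Chd4-208, a retained-intron transcript of 369 bases at the start of the gene, took 6.62% and 43.1%, from 79.3 and 548 counts. It held 0.3% and 2.5% of Chd4 counts. With it, the effective length of Chd4 was 5440 bases in replicate 1 and 3381 in replicate 2, while the counts of the gene were 30455 and 21807. Leaving out Chd4-208, an alternative chosen after seeing these values, gave a log2 ratio of Chd3 to Chd4 of 0.62 (limma adjusted p = 0.000241, with 93.1% of genes called). It was 0.27 in replicate 1 and 0.96 in replicate 2, so the value rests largely on replicate 2. The retained-intron transcripts of Chd3, Chd3-203 among them, were kept in that ratio. The part of Chd4-208 that complete Chd4 transcripts splice out is shown because it is the sequence by which reads can tell this form from the others. It lies at chr6:125097266-125097371 (mm10, plus strand, GENCODE M21), in an intron of Chd4-202, and capitals mark its 106 intron bases after 20 exon bases in lower case.
Chd4-208: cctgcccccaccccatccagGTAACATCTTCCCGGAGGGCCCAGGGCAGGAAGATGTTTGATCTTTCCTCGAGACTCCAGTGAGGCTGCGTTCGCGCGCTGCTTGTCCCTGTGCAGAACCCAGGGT
The other 263 bases of Chd4-208 are shared with complete Chd4 transcripts.

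**Figure D2:**
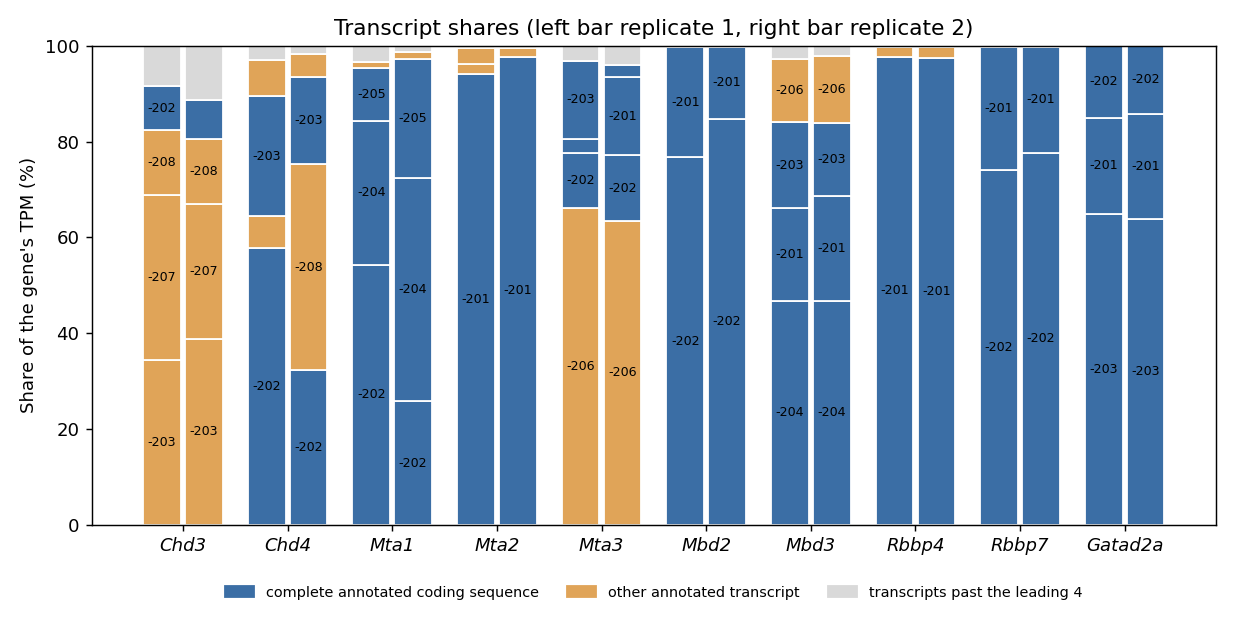
Share of each NuRD member's TPM by transcript, in percent, with the left bar for replicate 1 and the right bar for replicate 2, and segments drawn for the leading 4 transcripts by mean share. Chd3 and Mta3 are filled mostly by transcripts without a complete annotated coding sequence, and Chd4-208 grows from 6.62% to 43.1% of Chd4.

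The MTA slot was shared by 3 genes. Mta3 (ENSMUSG00000055817.13, chromosome 17, 83706163 to 83821516, plus strand) had 94.8 and 80.0 TPM. Mta1 (ENSMUSG00000021144.10, chromosome 12, 113098278 to 113137206, plus strand) had 77.7 and 57.8 TPM. Mta2 (ENSMUSG00000071646.5, chromosome 19, 8941875 to 8952303, plus strand) had 38.6 and 37.2 TPM. By TPM, Mta3 held 44.9% and 45.7% of the slot, Mta1 36.8% and 33.0%, and Mta2 18.3% and 21.3%.

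Mta2 was below both of its paralogs in TPM in both libraries. Mta1 exceeded Mta2 by 0.99 and 0.62 on the log2 scale, with a mean of 0.81 (95% interval 0.46 to 1.15, limma adjusted p = 0.00182), but after adjustment for GC content the ratio was -0.06 (limma adjusted p = 0.745). Gene GC content was 57.7% for Mta1 and 51.3% for Mta2. Mta3 exceeded Mta2 by 1.28 and 1.08, with a mean of 1.18 (95% interval 0.88 to 1.48, limma adjusted p = 0.000155), but the ratio turned to -0.37 over complete coding transcripts (limma adjusted p = 0.0185) and -0.38 by counts (limma adjusted p = 0.00938). In the fit against Mta2, 90.7% of genes differed from it. Mta1 was below Mta3 by a mean log2 ratio of -0.37 that was not called (95% interval -0.79 to 0.05, limma adjusted p = 0.0877), where 92.1% of genes differed from Mta3. Over complete coding transcripts that ratio was 1.20 (limma adjusted p = 3.79e-09), by counts 1.03 (limma adjusted p = 1.34e-10), and after GC adjustment -0.95 (limma adjusted p = 0.000124). Among complete coding transcripts Mta1 held 53.5% and 47.3% of the slot, Mta2 25.6% and 30.6%, and Mta3 20.9% and 22.1%.

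Transcripts of the MTA genes differed in how far they could be told apart. Mta3-206, an incomplete coding transcript of 767 bases in the deposited tables, took 66.2% and 63.5% of Mta3 TPM and 43.3% and 38.2% of its counts. Complete coding forms made up 31.4% and 32.7% of Mta3 TPM. Among these forms, Mta3-203 took 16.4% of all Mta3 TPM in replicate 1 and 2.43% in replicate 2, while Mta3-201 took 2.85% and 16.4% of it. Mta1-202 took 54.2% and 25.8% of Mta1 TPM, and Mta1-204 took 30.2% and 46.6%. The sequence of Mta1-202 lies entirely within that of Mta1-204, which has 45 more bases before it and 33 more after it, and both have 698 codons. Mta2 was nearly all Mta2-201, at 94.1% and 97.7%, with 668 codons.

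Rbbp7 led the RBBP slot by TPM. Rbbp7 (ENSMUSG00000031353.9, chromosome X, 162760402 to 162779092, plus strand) had 59.2 and 57.7 TPM, and Rbbp4 (ENSMUSG00000057236.10, chromosome 4, 129307100 to 129335370, minus strand) had 32.7 and 23.97. Rbbp7 held 64.4% and 70.6% of the slot. The log2 ratio of Rbbp7 to Rbbp4 was 0.84 and 1.23, with a mean of 1.03 (95% interval 0.36 to 1.70, limma adjusted p = 0.00352), where 79.9% of genes differed from Rbbp4. By counts, which are not corrected for length, the ratio was -0.45 (limma adjusted p = 0.237), with 10178 and 5682 counts on Rbbp4 and 6544 and 4748 on Rbbp7. The effective length was 4169 bases for Rbbp4 and 1482 for Rbbp7 in replicate 1. Rbbp4-201, with 4407 bases and 425 codons, made up 97.8% and 97.5% of Rbbp4.

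Rbbp7 was led by a shorter coding form. Rbbp7-202, with 10 exons and 386 codons, took 74.1% and 77.7% of Rbbp7 TPM from 4169 and 3226 counts. Rbbp7-201, with 12 exons and 425 codons, took 25.7% and 22.2% from 2369 and 1520 counts. At 15.21 and 12.82 TPM, Rbbp7-201 alone lay below Rbbp4-201, which also has 425 codons, at 32.02 and 23.38 TPM. The lead of Rbbp7 over Rbbp4 by TPM thus depends on counting Rbbp7-202, which the complete coding measure includes. By counts Rbbp7-202 took 63.7% and 67.9%. Its last exon runs on into an intron of Rbbp7-201, at chrX:162775794-162775853 (mm10, plus strand, GENCODE M21), and adds 20 codons there before its stop codon. The stretch is shown because it gives this form its own C-terminal end. Capitals mark the 60 coding bases that are intron in Rbbp7-201, after 20 shared exon bases in lower case.
Rbbp7-202: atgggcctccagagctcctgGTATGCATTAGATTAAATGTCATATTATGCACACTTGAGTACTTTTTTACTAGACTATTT
Their GC content was 26.7%. Only 102 bases of Rbbp7-202 lie outside the other complete coding transcripts. Txlng, on the opposite strand, overlaps the end of Rbbp7 and had 884 and 494 counts, and the sources used here do not say whether strand was used.

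**Figure D3:**
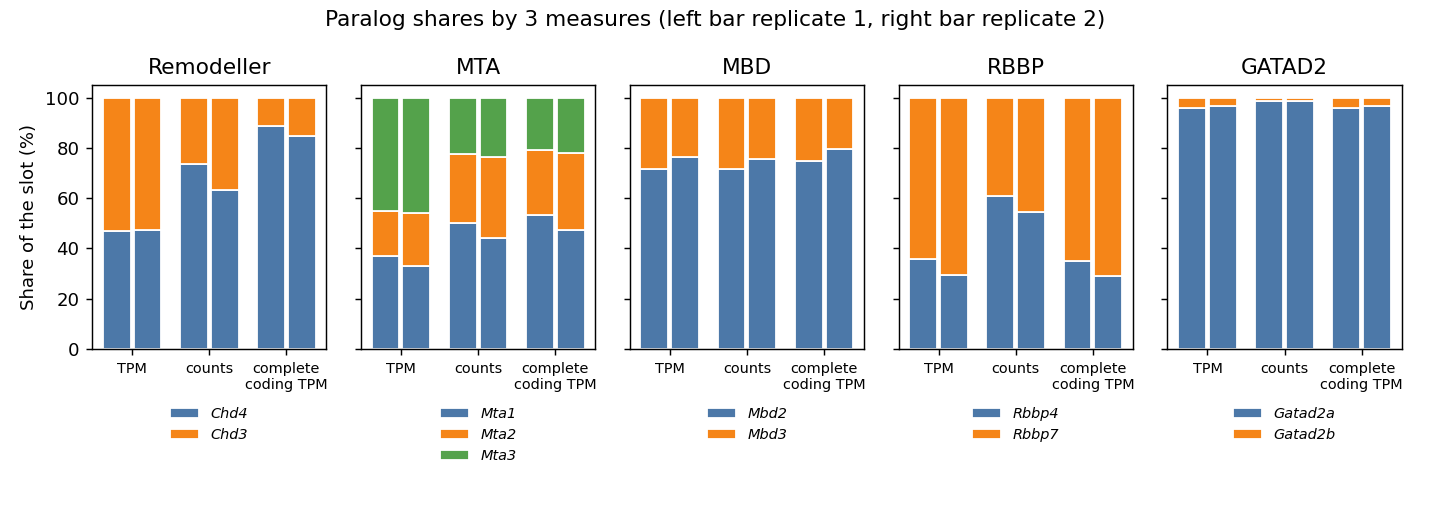
Share of each NuRD slot taken by its paralogs, in percent, by TPM, by expected counts and by TPM of complete coding transcripts, with the left bar for replicate 1 and the right for replicate 2. Mbd2 and Gatad2a hold most of their slots by all 3 measures, whereas Chd3 leads Chd4 by TPM only, Rbbp7 leads Rbbp4 by both TPM measures and not by counts, and Mta3 leads Mta1 by TPM only.

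Across the members, the transcript with the largest TPM share was the same in both libraries for 8 of 10 genes, all but Chd4 and Mta1. By counts it was the same for 9 of 10, all but Mta1. In replicate 1 the leading transcript by TPM had a complete annotated coding sequence in 8 of 10 genes, all but Chd3 and Mta3. In replicate 2 Chd4 was a further exception, since it was led by Chd4-208. These counts were not set against all genes.

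The deacetylase slot had the lowest summed level of the slots, 28.5 and 27.6 TPM. Hdac1 had 19.1 and 17.2 TPM and Hdac2 had 9.38 and 10.5. Hdac1 held 67.1% and 62.1% of their summed TPM. The log2 ratio of Hdac2 to Hdac1 was -0.95 and -0.66, with a mean of -0.81 (95% interval -1.14 to -0.47, limma adjusted p = 3.4e-05), where 88.2% of genes differed from Hdac1, but it was 0.24 after adjustment for GC content (limma adjusted p = 0.158). Gene GC content was 41.3% for Hdac2 and 51.5% for Hdac1. Cdk2ap1, which encodes a small subunit of the complex, had 54.3 and 62.3 TPM.

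**Figure D4:**
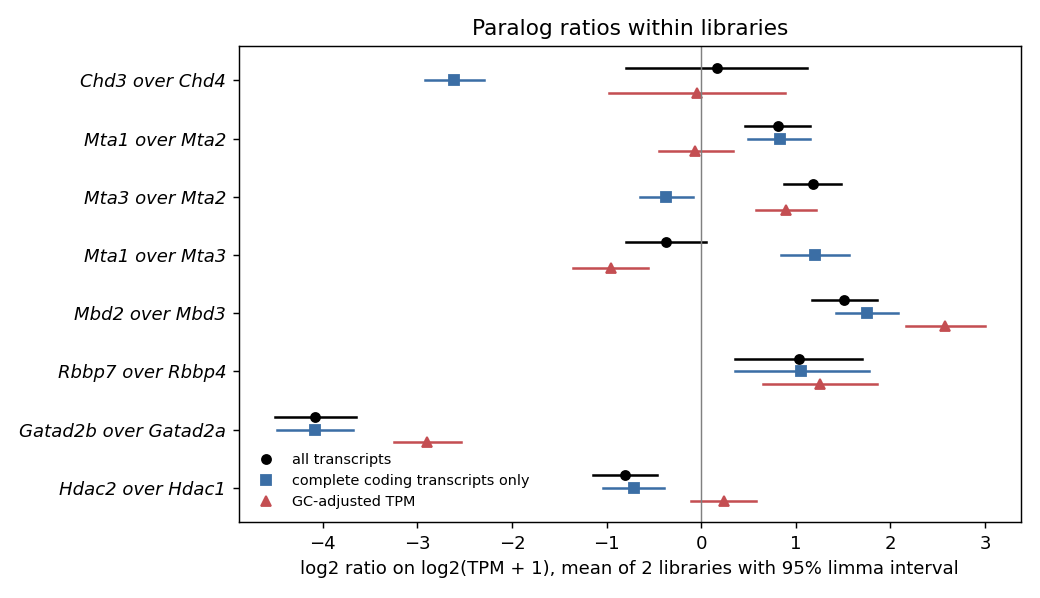
Paralog ratios within libraries on the log2(TPM + 1) scale, as the mean of 2 libraries with the 95% limma interval, for all transcripts, complete coding transcripts and GC-adjusted TPM. Mbd2 over Mbd3, Rbbp7 over Rbbp4 and Gatad2b over Gatad2a keep 1 side of 0 in all 3 measures, while Chd3 over Chd4, Mta1 over Mta2, Mta3 over Mta2, Mta1 over Mta3 and Hdac2 over Hdac1 change sides in at least 1.

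The replicates were compared for each member by an exact two-sided binomial test of rounded expected counts at the ratio of library totals after TMM scaling, with Benjamini-Hochberg adjustment over 10445 genes. This compares the libraries and not conditions, and it covers counting error only. Of the 10 members 8 differed, against 59.2% of all genes tested and 66.2% of genes with at least 100 summed counts. Chd3, Mbd2, Gatad2a, Mbd3 and Mta2 were higher in replicate 2, by 0.68, 0.37, 0.21, 0.09 and 0.07 on the log2 scale. Rbbp4, Mta1 and Mta3 were lower, with log2 differences of -0.38, -0.35 and -0.08. Chd4 (-0.02, adjusted p = 0.219) and Rbbp7 (0.00, adjusted p = 0.995) were not called. Under library totals in place of TMM, 3 members were called higher and 5 lower, with Chd4 and Rbbp7 called lower and Mta2 and Mbd3 not called. That scaling moved the calls over all genes from 3136 higher and 3047 lower to 2423 and 3776. The median absolute log2 difference over all genes was 0.24 and the 90th percentile 0.73, so no member lay beyond that percentile. The myeloid markers given above were also higher in replicate 2, and their part in the differences of the members was not tested.

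Chd4 shows that count and TPM differences between libraries need not be alike. Its counts differed by -0.02 on the log2 scale, while its TPM was 75.1 and 113. For Chd3 both measures were higher in replicate 2.

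Genes that work with NuRD were given as lists. Of 8 genes of transcription factors and cofactors listed here as possible recruiters of NuRD in blood cells, 5 were at 1 TPM or more in each library. Zfpm1, the gene of FOG1, was highest with 2525 and 3262 TPM, and Sall4 and Bcl11b had 0 counts in both. Of 8 other NuRD partners 7 reached 1 TPM. Zfp512b was highest by gene TPM, with 70.3 and 82.8, but its complete coding transcripts had only 0.60 and 0.58 TPM, below those of Zmynd8 with 42.7 and 36.7. Pwwp2b was lowest with 0 and 2 counts. All 5 of the possible recruiters and all 7 of the partners that were tested differed between the libraries, against the same 59.2% of all genes. Under library totals only 4 of the 7 partners differed, and Adnp, Zfp592 and Zfp687 were not called. Of the other lists, 2 of 4 tested NuRD subunits outside the members, 2 of 5 other CHD remodellers and 3 of 5 other MBD proteins differed.

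Relatives of the subunits outside NuRD were mixed in level. Among 6 other CHD remodellers 4 reached 1 TPM in both libraries, with Chd2 highest at 85.0 and 83.7 TPM and Chd7 lowest at 0.02 in each. Complete coding forms made up only 10.0% and 9.8% of Chd2 TPM. Their share was also low in Chd1 (4.7% and 3.4%), Chd6 (20.6% and 14.1%) and Chd8 (15.8% and 15.3%). A low share was thus not particular to Chd3, though in Chd9, at 0.54 and 0.41 TPM, it was 100%. Among 5 other MBD proteins 3 reached 1 TPM in both libraries, with Mbd6 highest at 271 and 364 TPM, and Mbd5 lowest at 0.86 and 0.76. Mbd6 was above Mbd2 in gene TPM in both libraries, but below it over complete coding transcripts, at 186 and 236 TPM against 226 and 293. RBBP4 and RBBP7 also serve in other chromatin complexes, and 11 of 14 genes of those complexes were at 1 TPM or more in each library, and the list's median was 18.4 TPM. Lin37 was highest at 134 and 107 TPM and Lin52 lowest at 0.30 and 0.16. Of these 14 genes 9 differed between the libraries, 2 higher and 7 lower in replicate 2, a share of 64.3% that lies near the 59.2% of all genes. Under library totals 11 were called, 1 higher and 10 lower.

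The 3 protein-coding genes nearest to Mbd2 by log2(TPM + 1) in the 2 libraries were Csf2rb2, with 241 and 301 TPM, Tmem160, with 212 and 288, and Tspan33, with 244 and 297. Their Euclidean distances from Mbd2 were 0.093, 0.10 and 0.11. Over 2 libraries this is a likeness of level alone.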

How the data were processed

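The authors deposited a gene and a transcript table for each of 2 libraries, on mm10 with GENCODE annotation M4, per the deposited description files. The aligner and quantifier were not given in the sources used here. Expected counts, as deposited, are estimated fragments per gene or transcript, per the file headers. TPM, as deposited by the authors, is corrected for effective length and sums to the same total in each library. The deposited FPKM values are per length and library size. In the transcript tables the authors give each transcript's share of its gene as a percent of TPM. Reads of paralogs and of overlapping transcripts are divided by estimation, so splits among near-identical transcripts are uncertain.

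The 43346 gene rows were used, and 26345 other rows with 9 counts in all were left out. GENCODE M21, on the same build, named 42462 rows and supplied transcript types, coordinates, GC content and the printed sequences. A complete coding transcript is one annotated as protein-coding with neither end marked as not found. The members and lists were chosen with earlier results of these data known. Named genes are the members, the other NuRD subunits, the highest and lowest gene of each further list, and the 3 genes nearest to Mbd2. Further genes of the lists were named after their values were seen: Bcl11b, Zmynd8, Adnp, Zfp592, Zfp687, Chd1, Chd6, Chd8 and Chd9. Txlng was named because it overlaps Rbbp7. Kinds of transcript and marker genes were named after their values were seen.

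Levels were averaged over 2 libraries. Pairs were fitted with limma 3.58.1 on log2(TPM + 1) over genes with a mean of at least 1 TPM, with a pseudocount of 1. Libraries were compared over genes with at least 20 summed counts, rounded, with TMM from edgeR 4.0.16, and DESeq2 1.42.0 size factors as an alternative. R 4.3.3, Python 3.11.15, pandas 2.3.3 and numpy 2.4.6 were used. Alternatives were the pseudocount, filters, FPKM, posterior means, protein-coding transcripts, TPM less its loess trend on gene GC content, scalings and leaving out each replicate. Complete coding transcripts, counts without length correction and leaving out Chd4-208 were added after the data were seen.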

Additional observations from a re-analysis of the deposited data

How the results depend on the processing

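Of 65 values of the 8 paralog pairs under alternative settings, 52 kept their direction and their side of the threshold, 2 passed it newly and 11 changed sign. Adjustment of TPM for GC content gave log2 ratios of -0.04 for Chd3 over Chd4, -0.06 for Mta1 over Mta2, 0.24 for Hdac2 over Hdac1 and -0.95, now called, for Mta1 over Mta3. Protein-coding transcripts alone gave -0.61 for Chd3 over Chd4. Complete coding transcripts gave -2.61 for Chd3 over Chd4, -0.37 for Mta3 over Mta2 and 1.20 for Mta1 over Mta3. Counts without length correction gave -1.14 for Chd3 over Chd4, -0.38 for Mta3 over Mta2, 1.03 for Mta1 over Mta3 and -0.45 for Rbbp7 over Rbbp4. Without Chd4-208, Chd3 over Chd4 was 0.62 and called, with 0.27 and 0.96 in the libraries. Beyond the construction of each alternative, the cause of these changes was not tested. Other pseudocounts and filters, FPKM and posterior means changed none of the 8 calls. The filter and FPKM could hardly move a ratio, because a filter drops other genes and FPKM is proportional to TPM within a library. They could change little but the error, so their values among the 52 say little about the direction. Either library alone gave the same direction for all 8 pairs, as a value with no test. The members called between the libraries numbered 8, or 7 with a minimum of 1 summed count, where Mta2 was not called and 38.8% of all genes were, against 59.2%. With a minimum of 100 summed counts, 8 members and 66.2% of all genes were called. No paired analysis was possible because both libraries belong to 1 group, and each ratio is already taken within a library. With 2 libraries, small ratios such as that of Mta1 to Mta3 cannot be settled, and counts of a few reads, as for Chd5, limit any level.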
